A study of Mus musculus with 22 samples.

Results

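The mitotic machinery genes examined here were 40 protein-coding genes whose products build, time or dismantle the mitotic spindle and chromosomes. They were taken by symbol from a fixed list, a rule that uses no measured value although the list was drawn up with earlier results of these data known, and all 40 were found once in the GENCODE vM1 annotation of the mouse genome build mm9, among 20455 protein-coding genes longer than 1 kb. Their RNA polymerase II (PolII) ChIP-seq peaks were followed from prometaphase into late-G1, with and without depletion of CTCF, to see when and how strongly the polymerase occupied them as cells left mitosis. A gene's transcription start sites (TSSs) were the starts of its protein-coding transcripts, and a gene had a TSS peak in a library if a called peak covered any of them.

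All libraries came from G1E-ER4 cells, a mouse erythroblast line that can be induced to differentiate. In the cells used, the insulator protein CTCF carries an auxin-inducible degron fused to mCherry. The plant protein OsTiR, which recognises the degron, is expressed from a retrovirus. Cells were arrested in prometaphase with 200 ng/ml nocodazole for 7 to 8.5 h and released for 0, 1, 2 or 4 h (prometaphase, early-G1, mid-G1 and late-G1). Control cells were not given auxin, the compound that triggers destruction of CTCF. Auxin cells had it from the last 4 h of the arrest, before release, and through the release. All cells were then sorted by DNA content and a mitotic antigen, with mCherry-positive cells taken as control and mCherry-negative cells as auxin. Control and auxin cells shared the line, the degron alleles, OsTiR, the nocodazole arrest and the release. There were 2 libraries for each stage and condition except mid-G1, which had 3, giving 18 libraries, 4 of them from prometaphase and 14 from after mitosis. The study calls same-group libraries biological replicates, but the labels do not say that they came from separate cultures, so the p-values measure only the spread between these libraries. Groups follow the labels. The study's own lists of deposited peak files and signal tracks name a control replicate where the labels have late-G1 auxin replicate 1. Its table of sequencing depth does so too, while its list of raw files matches the labels. Numbers of members called that moved when that library was dropped are given with and without it. Calls of single genes are given, where at all, only as the number of fits without a library in which they held.

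Peak lists differed in length. They held 2414 to 3918 peaks in prometaphase and 50594 to 117125 after mitosis, and the shortest post-mitotic list was that of mid-G1 control replicate 1, which also had the lowest mean number of fragments over a base in the post-mitotic libraries (0.73, against 1.26 to 2.14 in the other 13). As a check of the cell type, 8 of 8 erythroid precursor genes had a TSS peak in 12 to 14 of the 14 post-mitotic libraries, and 8 of 8 genes of liver, lymphoid, muscle, neural, epidermal, fibroblast and endothelial cells had none. Peaks carry no strand, so a peak between divergent genes cannot be assigned to either.

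Entry into mitosis is driven by Cdk1 bound to cyclin B, which the Cdc25 phosphatases activate. Exit follows when the anaphase-promoting complex (APC/C), with Cdc20 and then Fzr1 (Cdh1) as activator, marks cyclin B and securin (Pttg1) for destruction, and separase (Espl1) then cuts the cohesin that holds sister chromatids. Most of these genes are known as periodic genes whose transcription peaks in G2 and mitosis, and their promoters are known for a short element called the cell cycle genes homology region (CHR) near the start, for CCAAT boxes bound by NF-Y, and in part for E2F sites.

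Those elements were looked for in RefSeq promoter windows, from 250 bases before to 50 after a gene's start, on build GRCm38.p6. The windows of 6 members on which later results turn are printed 5′ to 3′ on the sense strand, with the words searched for in capitals. Cenpf, Top2a, Anln and Nusap1 are shown because the strength of their peaks differed between stages, Cdc20 because its TSS peak lay at another position in prometaphase, and Ube2c for both reasons. The windows lay at chr1:189688037-189688336 (minus strand) for Cenpf, chr11:99024140-99024439 (minus) for Top2a, chr9:22389157-22389456 (minus) for Anln, chr2:119618048-119618347 (plus) for Nusap1, chr4:118437294-118437593 (minus) for Cdc20 and chr2:164769679-164769978 (plus) for Ube2c.
Cenpf: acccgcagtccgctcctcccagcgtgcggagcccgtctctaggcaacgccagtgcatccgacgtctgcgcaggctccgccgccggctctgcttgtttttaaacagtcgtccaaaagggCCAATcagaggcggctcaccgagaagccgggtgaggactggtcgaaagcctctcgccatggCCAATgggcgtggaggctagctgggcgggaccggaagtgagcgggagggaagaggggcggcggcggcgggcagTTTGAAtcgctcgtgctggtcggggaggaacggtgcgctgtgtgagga
Top2a: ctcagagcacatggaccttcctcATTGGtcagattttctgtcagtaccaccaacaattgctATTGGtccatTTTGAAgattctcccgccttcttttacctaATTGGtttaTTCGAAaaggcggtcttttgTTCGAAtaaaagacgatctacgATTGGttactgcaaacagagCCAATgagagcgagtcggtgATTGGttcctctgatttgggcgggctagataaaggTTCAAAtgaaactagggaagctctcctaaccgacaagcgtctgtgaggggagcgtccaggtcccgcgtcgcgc
Anln: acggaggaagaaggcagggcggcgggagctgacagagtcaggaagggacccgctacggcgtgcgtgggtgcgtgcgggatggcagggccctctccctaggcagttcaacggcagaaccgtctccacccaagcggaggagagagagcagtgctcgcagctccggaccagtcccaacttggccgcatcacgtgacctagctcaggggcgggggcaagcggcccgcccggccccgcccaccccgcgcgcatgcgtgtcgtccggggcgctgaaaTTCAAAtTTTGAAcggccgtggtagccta
Nusap1: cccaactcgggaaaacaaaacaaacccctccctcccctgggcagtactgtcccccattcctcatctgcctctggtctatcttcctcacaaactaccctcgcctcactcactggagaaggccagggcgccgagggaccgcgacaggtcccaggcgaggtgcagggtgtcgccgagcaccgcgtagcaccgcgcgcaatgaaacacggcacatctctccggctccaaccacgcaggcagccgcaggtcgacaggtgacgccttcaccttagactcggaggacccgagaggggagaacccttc
Cdc20: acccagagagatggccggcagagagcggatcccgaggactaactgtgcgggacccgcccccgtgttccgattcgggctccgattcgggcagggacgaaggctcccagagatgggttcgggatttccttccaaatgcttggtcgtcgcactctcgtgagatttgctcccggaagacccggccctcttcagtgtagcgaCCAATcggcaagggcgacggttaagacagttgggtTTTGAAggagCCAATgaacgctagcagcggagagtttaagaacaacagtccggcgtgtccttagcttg
Ube2c: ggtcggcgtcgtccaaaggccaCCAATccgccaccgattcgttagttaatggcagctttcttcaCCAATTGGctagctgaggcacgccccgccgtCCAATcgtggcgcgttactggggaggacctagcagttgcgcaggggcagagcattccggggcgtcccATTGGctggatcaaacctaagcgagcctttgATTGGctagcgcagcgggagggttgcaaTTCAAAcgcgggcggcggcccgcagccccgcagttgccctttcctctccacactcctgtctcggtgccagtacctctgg

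The words were TTTGAA and TTCGAA for the CHR, CCAAT for the NF-Y box, and TTTGGCGC, TTTCGCGC and TTTCCCGC for E2F, each on both strands, and a gene counted once however many words it held. A CCAAT word can overlap its own reverse complement, as it does once in the Ube2c window. RefSeq windows matched 33 of the 40 members and 13950 of all protein-coding genes; Ccna2, Cdc25c, Aurkb, Incenp, Kif20a, Tpx2 and Smc4 were not matched. A CHR word was found in 24 of 33 members (72.7%), against 18.5% of all genes, and a CCAAT word in 26 of 33 (78.8%), against 42.2%. Both were present in 22 of 33 members (66.7%) and in 7.61% of all genes. E2F words were rarer, with 3 of 33 members (9.09%), namely Cdk1, Ncapd2 and Ncapg, and 3.0% of all genes. The Top2a window held 4 CHR and 6 CCAAT words, that of Ube2c 1 and 6, those of Cenpf and Cdc20 1 and 2 each, and that of Anln 2 CHR words and no CCAAT word. None of the words was found in the Nusap1 window. These matches describe letters in a window and are not binding sites.

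In prometaphase, when few genes anywhere had a peak, 22 of the 40 members had a TSS peak in at least 1 of the 4 libraries, against 7.93% of all genes. All 4 libraries had one at 10 members, against 1.9% of all genes. In bulk libraries a peak in fewer cells and a weaker peak in every cell cannot be told apart. Per library, the members with a TSS peak numbered 16 and 15 in control and 13 and 15 in auxin, where the share of all genes ranged from 3.29% to 5.23%. By role, the 10 were Cdk1, the kinase of the mitotic switch; Nek2, a centrosome kinase; Cenpf, a kinetochore protein; Kif20a, Nusap1 and Ect2 of the spindle and cytokinesis; Cdc20 and the ubiquitin-conjugating enzyme Ube2c of the APC/C; and Ncapd2 and Top2a, a condensin subunit and the topoisomerase that untangles chromatids. Another 12 had a TSS peak in 1 to 3 of the libraries, against 6.04% of all genes, namely Ccnb2, Kif11 and Ncapg in 3, Ncaph in 2, and Cdc25c, Bub3, Mad2l1, Incenp, Birc5, Kif23, Espl1 and Smc4 in 1. A peak anywhere in the gene or within 1 kb of it was called in at least 1 prometaphase library for 30 members, against 17.2% of all genes, and in all 4 for 15, against 4.77%. The remaining 18 had no prometaphase TSS peak, and these were Ccnb1, Ccna2, Cdc25b, Plk1, Aurka, Aurkb, Ttk, Bub1, Bub1b, Cenpa, Cenpe, Kif2c, Tpx2, Prc1, Anln, Fzr1, Pttg1 and Smc2. Ccnb1, cyclin B itself, instead had a peak in all 4 libraries whose summit lay before its start, at −303 to −166 bp.

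Peaks within a list were ranked by the deposited fold enrichment over background, with rank 1 the strongest and tied peaks sharing a rank, and a gene took the best rank of any peak that overlapped it or its 1 kb flanks. Top2a stood highest among the members with a prometaphase TSS peak. Its best ranks were 144 and 212 in control and 153 and 97 in auxin. Kif20a, a kinesin of the central spindle, followed with 215 and 140 in control and 235 and 219 in auxin. Both genes thus stayed within the first 250 peaks of each prometaphase list. The Kif20a summits lay 163 to 293 bp after its start, but the divergent gene Brd8 lies within 1 kb of Kif20a and peaks carry no strand.

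Cenpf had ranks of 385 and 536 in control and 417 and 381 in auxin. Ncapd2 had 281 and 363 in control and 795 and 442 in auxin, from a peak it shares with Mrpl51, and Nek2 had 356 and 387, then 933 and 540. Bub3, a checkpoint protein that binds kinetochores, had a peak in control replicate 2 alone, at rank 363. With 2 libraries a condition no test of auxin against control was made in prometaphase, and these ranks are given as values only. Gene bodies were almost bare at this stage. Of the 40 members, 33 to 36 per library had no covered base beyond 500 bp after the start, and the highest coverage was 9.77% of the body, at Fzr1, whose peak lies at its 3′ end beside 4930404N11Rik and F630110N24Rik.

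**Figure D1:**
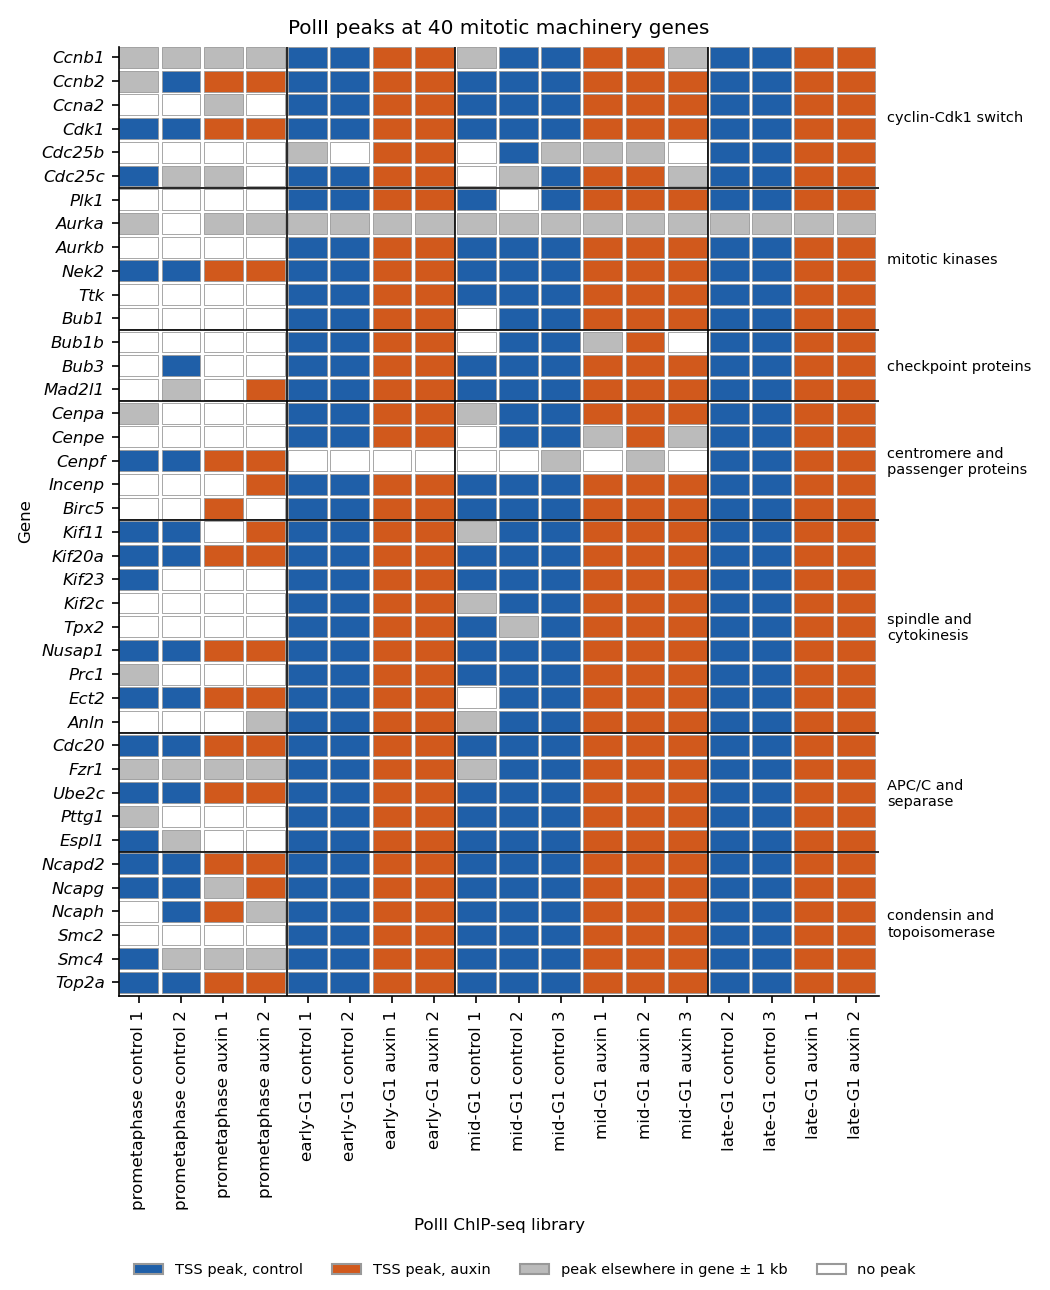
PolII peaks at the 40 mitotic machinery genes (rows, by role) in the 18 libraries (columns, by stage and condition). Blue (control) and orange (auxin) cells mark a peak over a TSS, grey a peak elsewhere in the gene or its 1 kb flanks and white no peak; 10 rows are filled in all 4 prometaphase columns, 39 in all 4 late-G1 columns, and the Cenpf row is filled at both ends with no TSS peak between.

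After mitosis nearly all members acquired a TSS peak. In early-G1, 37 and 37 members had one in control and 38 and 38 in auxin, where 42.5% to 42.8% of all genes had one. In late-G1 the number was 39 in each of the 4 libraries, against 41.7% to 44.2% of all genes. A TSS peak in every early-G1 library was found at 37 members and in every late-G1 library at 39, against 40.7% and 39.9% of all genes. A TSS peak was called in all 14 post-mitotic libraries at 24 members, against 34.5% of all genes, and the other 16 lacked it in 1 to 14 libraries.

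The gaps fell mostly in mid-G1. There the count per library was 26, 35 and 37 in control and 35, 37 and 33 in auxin, and the share of all genes was 35.7% to 43.3%. Of the 16 members with a gap, 13 had a TSS peak in all 8 early-G1 and late-G1 libraries and missed it only in mid-G1, a pattern that 4.27% of all genes had. Only genes with a TSS peak in all 8 of those libraries could show it. These were 37 members and 7932 of all genes, and 873 of the 7932 showed it. The shallow library mid-G1 control replicate 1 lacked the peak at 14 of the 16, and 7 members missed it there alone. With that library left out, 6 of 40 members still had a TSS peak in all early-G1 and late-G1 libraries and a gap in the other 5 mid-G1 libraries, against 1.09% of all genes. That share was 223 of the same 7932 genes. Those with the most gaps of this kind were Cdc25c, Bub1b and Cenpe, a mitotic phosphatase, a checkpoint kinase and a kinetochore motor, each without a TSS peak in 3 of the 6 mid-G1 libraries.

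The 3 members outside that pattern were Cdc25b, Aurka and Cenpf. Cdc25b, a phosphatase that activates Cdk1, had a TSS peak in 7 of 14 libraries, and the worst mean rank of any member in early-G1. Its best ranks there were 87872 in control replicate 1 and 54748 and 35056 in auxin, with no peak in control replicate 2. Aurka, the spindle pole kinase, had no TSS peak in any of the 18 libraries, and 53.9% of all genes likewise had none in the 14 post-mitotic ones. Its best peak lay a median of 14.3 kb from its start in 16 libraries, mostly at its 3′ end, and within 1 kb of 2010011I20Rik in 11 of them.

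Cenpf (chr1:191464478-191511965, minus strand, mm9) had a course of its own. After ranks of 381 to 536 in the 4 prometaphase libraries, no peak covered its TSS in any of the 10 early-G1 and mid-G1 libraries. In mid-G1 control replicate 3 and auxin replicate 2 weak peaks lay just inside the gene, at ranks 61227 and 99274. The TSS peak was called again in late-G1, at ranks 15958 and 12940 in control and 29081 and 20197 in auxin. The prometaphase lists held 2414 to 3918 peaks and the late-G1 lists 74154 to 117125, so ranks cannot be compared between these stages. Fold enrichment over background at the TSS was 11.2 to 12.9 in prometaphase and 6.23 to 12.4 in late-G1. Of the 388 genes with a TSS peak in all 4 prometaphase libraries, Cenpf was the only 1 with none in all 10 early-G1 and mid-G1 libraries, which makes 0.00489% of all genes. This pattern was noticed after the values were seen and has no test. A peak list shows only what passed a threshold, so lower occupancy and no occupancy cannot be told apart.

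Changes after mitosis were tested on −log2 of the best rank, so that a positive difference is a move towards the top of the list. The fit was limma over the 9689 genes with a peak in all 14 post-mitotic libraries, 32 of them members, with Benjamini-Hochberg adjustment over all genes. The 8 members left out lacked any peak in at least 1 of these libraries and were Bub1, Bub1b, Cdc25b, Cdc25c, Cenpe, Cenpf, Ect2 and Plk1. From early-G1 to mid-G1, 5 of 32 members fell and none rose, against 8.11% of all genes that fell and 5.27% that rose. From mid-G1 to late-G1, 10 rose, against 4.68% of all genes, and 1 fell, against 3.55%. The members' median difference was −0.52 and then 0.77 on the log2 scale, where that of all genes was −0.07 and 0.06. Mid-G1 was the stage with the lowest mean for 23 of 32 members and 36.0% of all genes, and late-G1 the stage with the highest for 21 members and 35.5% of all genes. The mid-G1 libraries enter both steps, so the steps are not independent of each other. Libraries of a stage also share the input used as background. A difference between stages, in rank or in coverage, therefore cannot be told apart from a difference between inputs.

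**Figure D2:**
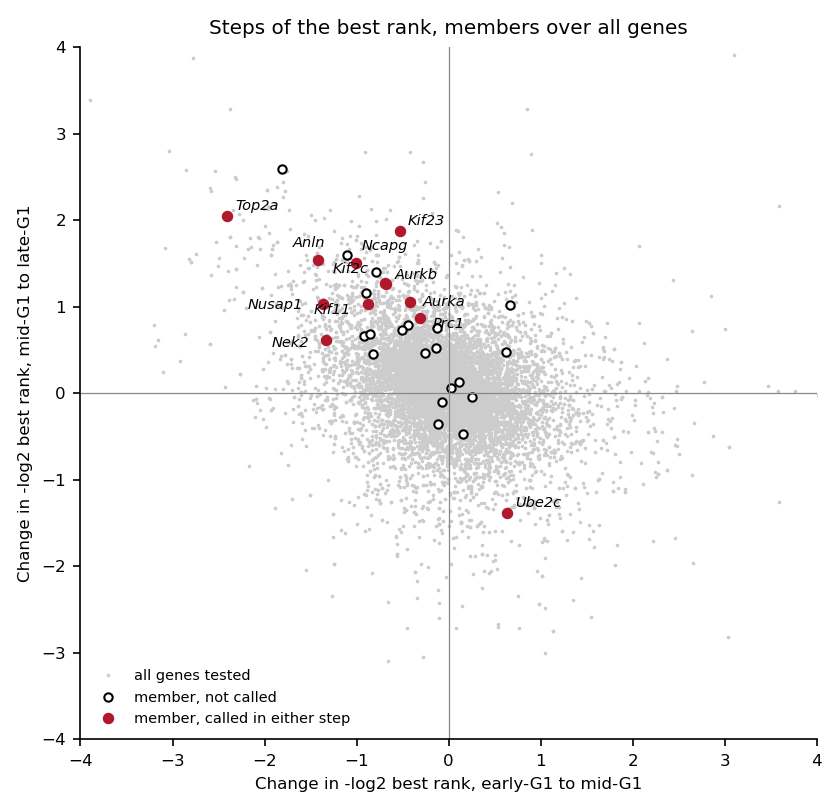
Change in −log2 best rank from early-G1 to mid-G1 (horizontal axis) and from mid-G1 to late-G1 (vertical axis) for the 9689 genes tested (grey dots, 3 outside the range drawn) and the 32 members among them (circles, filled and named where either step was called). Both axes use the mid-G1 libraries, which by itself tilts the cloud; the called members lie at the upper left, except Ube2c at the lower right.

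Among the condensin and topoisomerase genes, Top2a and Ncapg fell and then rose, and Top2a had the largest fitted difference of the members called in either step. Top2a had best ranks of 720 and 387 in early-G1 control and 822 and 1026 in auxin. In mid-G1 they were 4707, 6793 and 1388 in control and 2948, 4542 and 4263 in auxin, and in late-G1 611 and 1487, then 552 and 1284. All 6 mid-G1 values were worse than all 4 early-G1 values, and the mid-G1 and late-G1 ranges overlapped through mid-G1 control replicate 3. The fitted differences were −2.41 ± 0.42 (SE; limma adjusted p = 0.00158) and 2.04 ± 0.42 (limma adjusted p = 0.00753). The first call held in all 14 fits without a library and the second in 13. Ncapg, a condensin I subunit, changed by −1.01 ± 0.29 and 1.51 ± 0.29 (limma adjusted p = 0.0305 and 0.00481), and with a library dropped in turn its first call held in 8 of 14 fits and its second in all 14.

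Ncapd2 had the best mean rank of all members in early-G1, with 53 and 27 in control and 44 and 17 in auxin, but these values came from a peak outside the gene. In 13 post-mitotic libraries the summit lay 26.0 to 30.1 kb from the Ncapd2 start, within 1 kb of Gapdh. The peak over its own TSS had ranks of 2104 to 5001 in early-G1, 2323 to 3543 in mid-G1 and 1924 to 3533 in late-G1, which overlapped. With the Gapdh peak included, the fitted difference of Ncapd2 from mid-G1 to late-G1 was 2.59 ± 0.86 and missed the threshold (limma adjusted p = 0.0788). Smc2, Smc4 and Ncaph did not pass the test in either step.

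Among the spindle and cytokinesis genes, 2 of 8 tested fell from early-G1 to mid-G1, against 8.11% of all genes. From mid-G1 to late-G1 6 of 8 rose, against 4.68% of all genes, and none of these rises was called with the normal score of rank described below. Anln, the actin-binding anillin of the cleavage furrow, had ranks of 1419 to 2496 in the 4 early-G1 libraries, 4339 to 8738 in the 6 of mid-G1 and 1540 to 2583 in the 4 of late-G1. The mid-G1 values did not overlap either neighbour. Its differences were −1.42 ± 0.25 and 1.54 ± 0.25 (limma adjusted p = 0.00149 and 0.0015), and both calls held whichever of the 14 libraries was dropped. Nusap1, a microtubule bundler, had 1264 to 2436, 2155 to 7246 and 1639 to 3674, with differences of −1.37 ± 0.30 and 1.02 ± 0.30 (limma adjusted p = 0.0074 and 0.0476). The second was called in only 2 of the 14 such fits, and the peak is shared with the divergent gene Oip5.

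Kif2c, a microtubule depolymerase, rose by 1.26 ± 0.28 and Kif11, the bipolar spindle motor, by 1.03 ± 0.30 from mid-G1 to late-G1 (limma adjusted p = 0.012 and 0.0468), the Kif11 call holding in 2 of the 14 fits with a library dropped. Prc1, which bundles midzone microtubules, rose by 0.87 ± 0.23 (limma adjusted p = 0.0277), with best peaks near the neighbour Rccd1 in 2 mid-G1 libraries. Kif23, a central spindle kinesin, rose by 1.88 ± 0.42 (limma adjusted p = 0.0118). In late-G1 control replicate 3 its best peak, at rank 440, lay 32.3 kb from its start within 1 kb of Rplp1, and the peak over its TSS had rank 4994 there. On peaks over a TSS only, Kif23 rose by 1.00 ± 0.29 (limma adjusted p = 0.0385) and Prc1 by 1.04 ± 0.25 (limma adjusted p = 0.0142). On all peaks, with a library dropped in turn, the calls of Kif2c and Kif23 each held in 13 of 14 fits and that of Prc1 in 10. Tpx2, a spindle assembly factor, had a difference of 1.40 ± 0.43 in the same direction that missed the threshold (limma adjusted p = 0.0549), and Kif20a was not called in either step.

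Of the mitotic kinases, Nek2 fell from early-G1 to mid-G1 by 1.34 ± 0.28 (limma adjusted p = 0.00565), from ranks of 2240 to 3630 to overlapping ranks of 3454 to 9041. Aurkb, the kinase of the chromosomal passenger complex, rose from mid-G1 to late-G1 by 1.27 ± 0.29 (limma adjusted p = 0.0143) and Aurka by 1.05 ± 0.24 (limma adjusted p = 0.0136), the latter mostly on peaks at the 3′ end of the gene. The Aurkb and Aurka calls each held in 12 of 14 fits without a library. Among the centromere and passenger proteins Cenpa, the histone H3 variant of centromeres, was the only member called from early-G1 to late-G1. Its ranks were 5865 and 8679 in early-G1 control and 6484 and 6115 in auxin, 6588, 3941 and 5556 then 1822, 3879 and 5442 in mid-G1, and 1338 and 2526 then 2904 and 1924 in late-G1. All 4 late-G1 values were better than all 4 early-G1 values. The difference was 1.68 ± 0.35 (limma adjusted p = 0.00526), the background of the contrast being 6.28% of genes higher and 6.99% lower.

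Ube2c went the other way. Its ranks were 3044 to 5625 in early-G1, 1870 to 3442 in mid-G1 and 6175 to 8182 in late-G1, with no overlap between mid-G1 and late-G1. It fell from mid-G1 to late-G1 by 1.38 ± 0.25 (limma adjusted p = 0.00332), a call that held in all 14 fits without a library. The cyclin–Cdk1 genes tested (4 of 6), the checkpoint genes (2 of 3) and the other APC/C genes had no call in any of these steps.

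**Figure D3:**
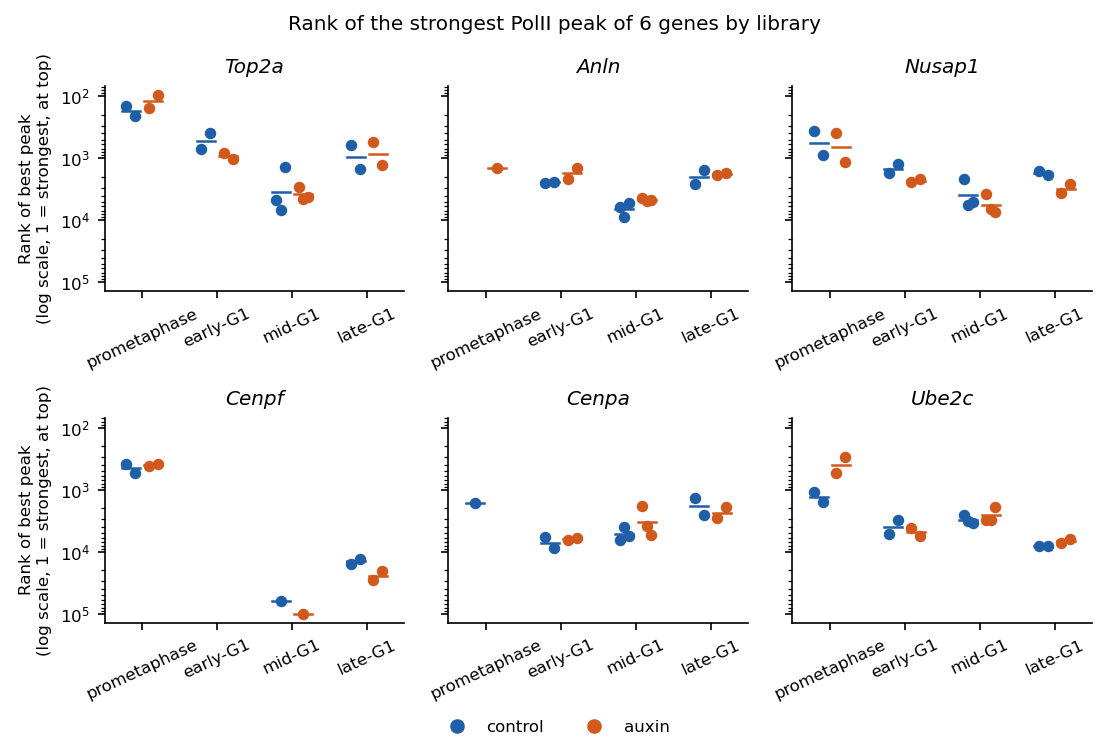
Rank of the strongest PolII peak of Top2a, Anln, Nusap1, Cenpf, Cenpa and Ube2c in each library (points; lines, geometric mean of a group) by stage, for control (blue) and auxin (orange), on an inverted log axis with the strongest peak at the top; libraries with no peak have no point. Top2a, Anln and Nusap1 dip in mid-G1, Cenpf is absent from early-G1, Cenpa climbs and Ube2c sinks in late-G1. Prometaphase lists are far shorter than later ones, so prometaphase ranks cannot be compared with those of later stages.

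The rise after mid-G1 depended on how rank was scaled, and the fall before it less so. Lists in mid-G1 were 50594 to 107666 peaks long, those in late-G1 74154 to 117125 and those in early-G1 100031 to 107213. With a normal score of a peak's rank within its list in place of −log2 rank, Top2a, Anln, Nusap1 and Nek2 still fell from early-G1 to mid-G1 and no member rose, against 3.51% of all genes lower and 0.857% higher. From mid-G1 to late-G1 no member rose and Ube2c fell, against 0.588% and 0.537%. With genes ranked among genes in place of peaks among peaks, 6 members fell in the first step (6.81% of all genes lower, 4.81% higher), namely the 5 and Kif11. In the second 7 rose and 1 fell (3.95% of all genes higher, 3.62% lower). Aurka, Kif23 and Nusap1 missed the threshold (limma adjusted p = 0.0519, 0.0615 and 0.0848), and the difference was 0.52 for Aurkb, 0.45 for Kif2c and 0.42 for Aurka.

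With peaks over a TSS only, 6 of 24 tested members rose from mid-G1 to late-G1 and 1 fell (5.06% of all genes higher, 3.87% lower). Leaving out late-G1 control replicate 2, late-G1 auxin replicate 1 or late-G1 auxin replicate 2 lowered the number that rose to 5, 4 and 6 of 32, where 4.37%, 2.76% and 2.44% of all genes rose. Without the shallow mid-G1 control replicate 1, the members tested were 36 and those that rose 13, Bub1 and Cdc25c among them, with 1 that fell (4.4% of all genes higher, 3.47% lower). Within conditions, the members' median difference from early-G1 to mid-G1 was −0.72 in control and −0.40 in auxin, and from mid-G1 to late-G1 1.01 and 0.61, where the medians of all genes were −0.13, −0.00, 0.16 and −0.03. From early-G1 to mid-G1, Anln and Top2a fell within control (2.36% of all genes lower, 1.33% higher) and Anln and Nek2 within auxin (2.31% and 1.74%). From mid-G1 to late-G1, Kif2c, Ncapg, Anln and Kif23 rose and Ube2c fell within control (1.62% of all genes higher, 1.23% lower), and no member was called within auxin (1.03% and 0.929%), where 12 of 32 members and 15.3% of all genes had an unadjusted p under 0.05. Whether these steps differed between the conditions was not tested.

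Members with a CHR word had a median difference from mid-G1 to late-G1 of 1.02 (18 genes) and those without one 0.29 (8 genes). Over all tested genes with a promoter window these medians were 0.14 (1103 genes) and 0.05 (5870 genes). From early-G1 to mid-G1 the members' medians were −0.47 and −0.31, and those of all genes −0.13 and −0.05. The groups were compared as a description only.

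Gene body coverage is the percentage of bases from 500 bp after the start to the end of the gene that lay under a peak. A peak of a neighbour inside a gene counts towards it. Coverage was tested with limma over the 6325 genes with a mean of at least 5% in the post-mitotic libraries, 18 of them members. From early-G1 to mid-G1, 6 of 18 members fell and none rose, against 16.4% of all genes lower and 0.791% higher, with a median of −15.6 percentage points for members and −5.21 for all genes. All 4 condensin and topoisomerase genes tested were among the 6. From mid-G1 to late-G1, 2 rose and none fell, against 0.696% and 0.221% of all genes, with medians of 7.10 and 1.95 percentage points. From early-G1 to late-G1 only Ncaph changed, and it fell, as did 12.2% of all genes while 3.53% rose. With each library centred on its median gene the members that fell and rose numbered 5 and 1, 0 and 3, and 0 and 2 in these contrasts, where 10.3% and 11.2%, 1.3% and 1.3%, and 13.2% and 13.4% of all genes fell and rose.

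Ncapd2 was covered over 53.3% and 59.6% of its body in early-G1 control and 43.5% and 48.5% in auxin. In mid-G1 the values were 1.43%, 11.1% and 22.9% in control and 14.6%, 20.6% and 10.8% in auxin, and in late-G1 50.4% and 57.8%, then 30.6% and 22.6%. The early-G1 values lay above all 6 of mid-G1, while auxin replicate 2 of late-G1 lay within the mid-G1 range. Coverage fell by 37.6 ± 4.22 percentage points (SE; limma adjusted p = 0.000664) and then rose by 26.8 ± 4.22 (limma adjusted p = 0.0251).

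Top2a had 62.1% and 68.3% in early-G1 control, 37.9% and 34.0% in auxin, 1.95%, 21.0% and 29.6% then 18.5%, 26.8% and 11.7% in mid-G1, and 58.0% and 82.5% then 47.3% and 30.7% in late-G1. Early-G1 and late-G1 values were all above those of mid-G1. The differences were −32.3 ± 6.69 and 36.4 ± 6.69 percentage points (limma adjusted p = 0.011 and 0.0451). The late-G1 rise was called in 7 of the 14 fits without a library for Ncapd2 and in 3 for Top2a, and the number of members that rose ranged from 0 to 5 over those fits, reaching 5 without late-G1 control replicate 2 and 0 without late-G1 control replicate 3, either late-G1 auxin replicate, either early-G1 auxin replicate or mid-G1 auxin replicates 1 or 3.

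Within control, Ncapd2, Top2a, Ncaph and Cdk1 fell from early-G1 to mid-G1 (15.5% of all genes lower, 0.0632% higher) and Ncapd2 rose from mid-G1 to late-G1 (0.395% higher, 0% lower). Within auxin no member was called in either step, where 0.854% of all genes fell and 0.0791% rose in the first and 0% in the second, and 3 and 0 of 18 members had an unadjusted p under 0.05, against 11.9% and 5.98% of all genes. The difference between the conditions was not tested.

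Ncaph, the kleisin subunit of condensin I, was lower in mid-G1 and in late-G1 than in early-G1. It had 21.9% and 27.5% in early-G1 control and 20.1% and 17.2% in auxin, 0% to 8.89% over the 6 mid-G1 libraries, and 7.90% and 14.7% then 4.87% and 4.53% in late-G1. Every late-G1 value was below every early-G1 value. Coverage was lower by 17.2 ± 2.33 percentage points in mid-G1 and by 13.7 ± 2.55 in late-G1 than in early-G1, with fitted differences of −17.2 and −13.7 (limma adjusted p = 0.00162 and 0.00877). Centred on the median gene the differences were −9.06 and −8.96 and missed the threshold (limma adjusted p = 0.0631 and 0.0787), and on a logit scale the late-G1 call was lost (limma adjusted p = 0.153). Its rank was not called in either step.

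Smc4, an ATPase subunit shared by both condensins, fell from early-G1 to mid-G1 by 28.1 ± 7.93 percentage points, Fzr1 by 20.0 ± 5.01 and Nek2 by 15.8 ± 4.60 (limma adjusted p = 0.039, 0.0239 and 0.0431). With a library dropped in turn these were called in 5, 11 and 3 of 14 fits. Ift80 and Trim59 overlap Smc4 or its flanks, so its coverage is not its alone, and the Fzr1 coverage includes the peak at its 3′ end beside 4930404N11Rik and F630110N24Rik, which is present in all 18 libraries. Without early-G1 control replicate 2 the number of members that fell was 2, against 6.18% of all genes, and without early-G1 auxin replicate 2 it was 3, against 7.81%. On a logit scale 2 members fell in this step and none rose in the next, against 7.76% and 0.206% of all genes. At the other end of the scale, Ccnb2, Cdc25b, Cdc25c, Ttk, Bub1, Bub1b, Cenpe, Cenpf, Ect2 and Pttg1 had at most 2.39% of their bodies covered in any library.

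**Figure D4:**
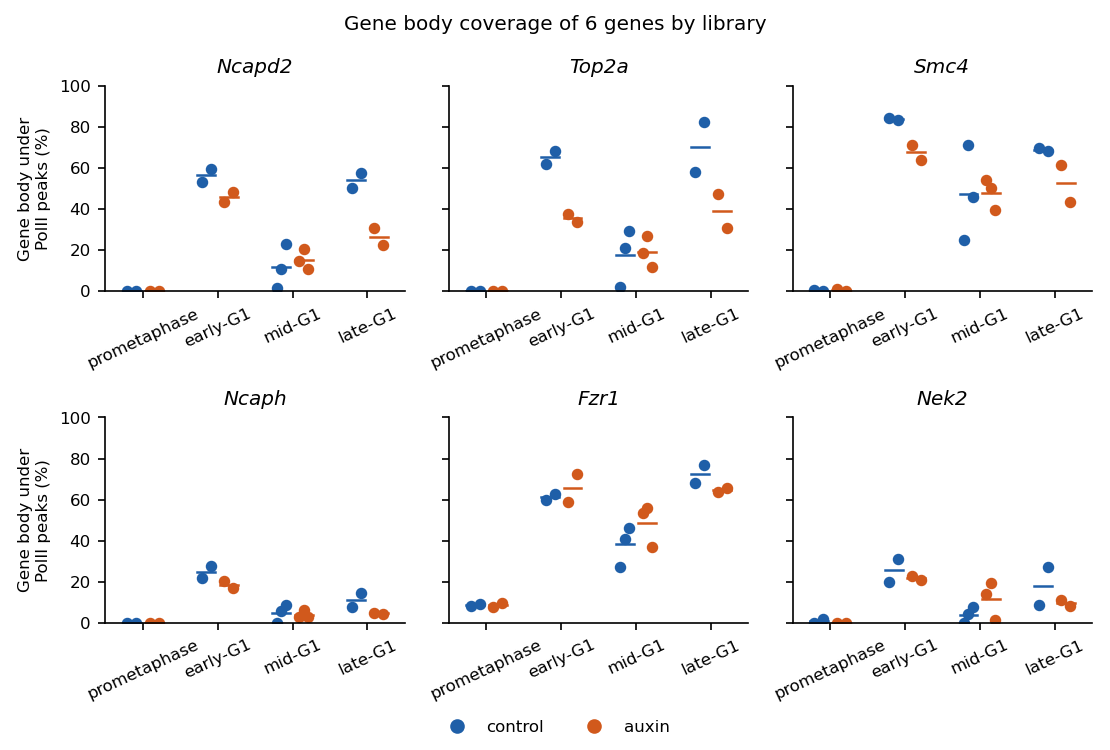
Percentage of the gene body under PolII peaks for Ncapd2, Top2a, Smc4, Ncaph, Fzr1 and Nek2 in each library (points; lines, group mean) by stage, for control (blue) and auxin (orange). Bodies are at 0% to 1.79% in prometaphase, except Fzr1 at 7.78% to 9.77%, covered in early-G1 and less so in mid-G1; Ncaph stays at 4.53% to 14.7% in late-G1.

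The position of the TSS peak also differed between stages for some members. At Cdc20 the summit lay 67 to 117 bp after the start in the 4 prometaphase libraries and before it, at −202 to −134 bp, in the 4 of early-G1. At Ube2c it lay 48 to 75 bp after the start in prometaphase and before it, at −308 to −116 bp, in early-G1. At Nusap1 it lay 419 to 518 bp after the start in prometaphase and 95 to 130 bp after it in early-G1. None of these prometaphase ranges overlapped that of early-G1. At Cdc20 mid-G1 control replicate 1 and late-G1 control replicate 2 had a summit after the start, at 69 and 88 bp, and at Nusap1 both late-G1 auxin libraries had one at 463 and 488 bp.

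Kif20a had summits 163 to 293 bp after its start in prometaphase and at −62 to 17 bp in early-G1. Top2a did not show this, with 20 to 39 bp in prometaphase and 18 to 44 bp in early-G1. Of the 9 members with a TSS peak in all 8 prometaphase and early-G1 libraries and median summits within 1 kb of the start, 7 had the prometaphase summit further downstream, by a median of 51.5 bp, against 65.9% of 340 such genes and a median of 15.8 bp. The early-G1 summit lay before the start at 4 of the 9 and the prometaphase one at 1, against 27.4% and 23.5% of all such genes. These members were named after their values were seen, and no test was made.

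**Figure D5:**
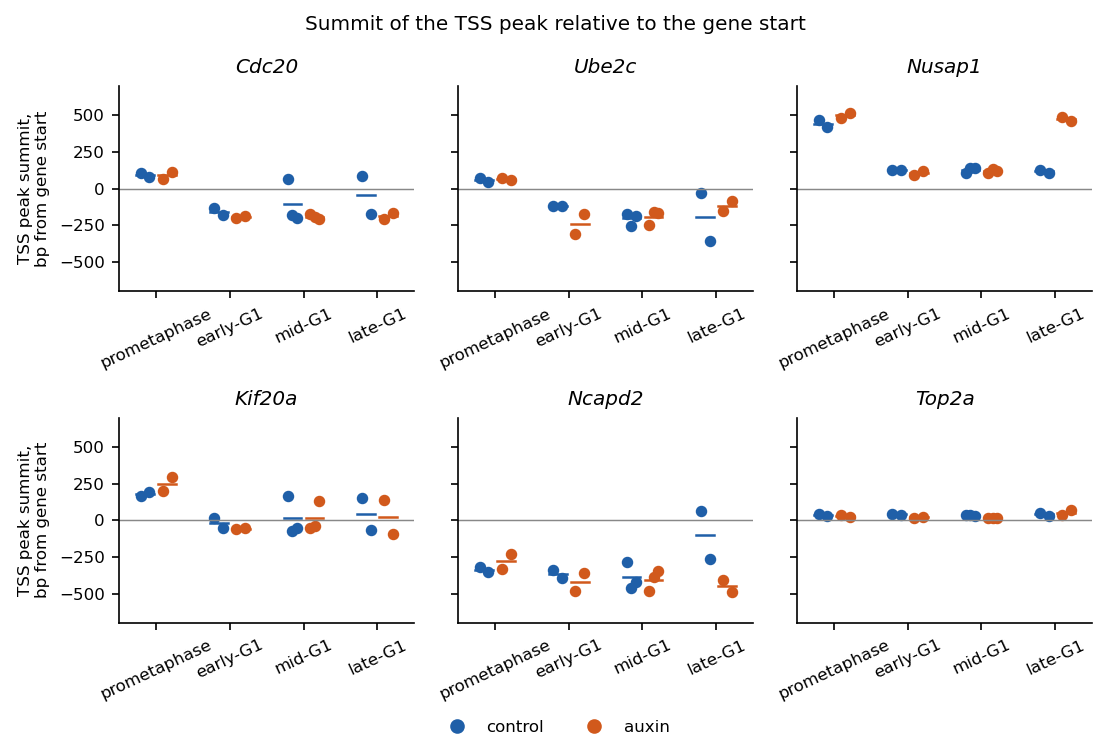
Distance of the summit of the TSS peak from the gene start (positive, into the gene) for Cdc20, Ube2c, Nusap1, Kif20a, Ncapd2 and Top2a in each library (points; lines, group mean), for control (blue) and auxin (orange). Prometaphase summits of Cdc20, Ube2c, Nusap1 and Kif20a lie further into the gene than in early-G1; those of Ncapd2 and Top2a overlap.

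Depletion of CTCF with auxin left no member called, in rank or in coverage, on average over the 3 post-mitotic stages, within any of them, or in the test of whether the change from early-G1 to late-G1 differed by auxin (limma, adjusted over all genes). For the average difference the test called 0.372% of all genes lower and 0.495% higher in rank, and 0% and 0.0316% in coverage. An unadjusted p under 0.05 was found for 3 of 32 members and 9.72% of all genes in rank, and for 4 of 18 members and 7.98% of all genes in coverage. With coverage centred on the median gene Top2a was called, at −15.9 ± 3.04 percentage points (limma adjusted p = 0.0297). In early-G1, mid-G1 and late-G1 taken singly the test called 0.0929%, 0.217% and 0.258% of all genes in rank and 0%, 0.0158% and 0% in coverage, and for the stage difference 0.0103% and 0%. The members with an unadjusted p under 0.05 numbered 0, 1 and 4 in rank and 2, 1 and 5 in coverage at the 3 stages, where the shares of all genes were 4.03%, 9.05% and 8.89% in rank and 6.25%, 4.96% and 6.48% in coverage. For the stage difference they numbered 1 and 0, against 5.03% and 1.55% of all genes. The members' median differences were 0.01 on the log2 scale and −4.81 percentage points, and those of all genes 0.01 and −2.51. A difference that misses the threshold with 2 or 3 libraries a group is not shown to be absent.

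The members with the largest average differences in rank were Ccna2, cyclin A, and Kif23. Ccna2 had ranks of 3443 and 2850 in early-G1 control and 2402 and 2180 in auxin, 5142, 3384 and 1935 against 2323, 1287 and 1291 in mid-G1, and 3187 and 3451 against 1744 and 1522 in late-G1. Ranks were better with auxin at every stage, with overlap in mid-G1 only through a single control library. The difference was 0.84 ± 0.24 (limma adjusted p = 0.162). With the replicate number as a block, which shared numbers alone do not justify, it was 0.98 ± 0.21 (limma adjusted p = 0.0348). Kif23 differed by −0.75 ± 0.35 (limma adjusted p = 0.512), and its late-G1 control replicate 3 value came from the peak near Rplp1. In coverage the largest were Top2a, at −19.7 ± 5.64 percentage points, and Ccna2, at −18.5 ± 10.2 (limma adjusted p = 0.575 and 0.619). The Ccna2 body was covered over 84.6% and 91.3% against 74.1% and 51.4% in early-G1, 21.2%, 75.5% and 65.5% against 55.5%, 72.0% and 33.9% in mid-G1, and 63.4% and 86.6% against 57.2% and 32.5% in late-G1. In late-G1 all 18 members tested had lower coverage with auxin, as did 86.5% of all genes tested.

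The Ccna2 peak moved with auxin. Its summit lay 215 to 269 bp after the gene start in all 7 post-mitotic control libraries and before it, at −143 to −93 bp, in all 7 auxin libraries. The order held at every stage. In early-G1 the summits were at 269 and 215 bp in control and −105 and −93 bp in auxin, in mid-G1 at 236, 235 and 258 against −104, −143 and −101 bp, and in late-G1 at 249 and 244 against −106 and −118 bp. Of the 7059 genes with a TSS peak in all 14 libraries, 24 of them members, the control and auxin summit ranges were apart at 0.524%, and more than 200 bp apart at 0.184%. Ccna2 was the only member among them, with a gap of 308 bp. The pattern was noticed after the values were seen and no test was made. Ccna2 (chr3:36463788-36471072, minus strand, mm9) has Bbs7 and Exosc9 within 1 kb, and its peak cannot be assigned by strand.

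Other genes of the pathway were counted in the same fits. Of 48 further mitosis genes, 41 were tested in rank, of which 10 fell and none rose from early-G1 to mid-G1 and 2 fell and 8 rose from mid-G1 to late-G1, with medians of −0.46 and 0.37. Over all genes 8.11% fell and 5.27% rose in the first step and 3.55% fell and 4.68% rose in the second. Oip5, counted in both steps, has the same peak and the same values as Nusap1. Those that rose included Depdc1a, by 1.73 ± 0.36, and Nuf2, a kinetochore protein, by 1.26 ± 0.23 (limma adjusted p = 0.00753 and 0.00333). Of 12 APC/C core subunits, all tested, 1 fell in each step and none rose. Of 15 regulators of mitotic gene promoters, all tested, 4 fell and 1 rose in the first step and none was called in the second. The 1 that rose was E2f4, a repressor-type E2F, by 1.11 ± 0.28 (limma adjusted p = 0.0153), and Lin37, of the complex that binds the CHR, fell by 1.56 ± 0.35 (limma adjusted p = 0.00842). These genes were picked as examples after their values were seen. In coverage, 7 of 25 further mitosis genes, 3 of 10 APC/C subunits and 3 of 11 regulators fell from early-G1 to mid-G1, against the 16.4% of all genes, and none of the 3 lists had a member that rose in either step. No gene of these lists was called by auxin.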

How the data were processed

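Peaks were called by the authors for each of the 18 PolII ChIP-seq libraries separately. Reads were aligned to mm9 with Bowtie2 2.2.9, handled with SAMtools 0.1.19 and bedtools 2.27.1, and called with MACS2 2.1.0, per the submitters' processing notes. Each deposited list gives a peak's fold enrichment over local background (a linear ratio), its −log10 p-value and −log10 q-value, a display score and the summit position. The lowest −log10 q-value in each list was just above 2, and the lists give no total read depth, so the precision behind a value is known only from the spread between libraries. The 4 input samples, a single one for each stage, had no peak list and were not analysed here. The study states that peaks were called against the input of the matching cell cycle stage. Libraries of a stage thus share an input, and the spread between them does not include differences between inputs.

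Genes were taken from GENCODE vM1. A peak belonged to a gene if it overlapped the gene or its 1 kb flanks, and genes of 1 kb or shorter were left out. The best rank in fold enrichment, the TSS peak, its summit and the percentage of the gene body under peaks were computed with Python 3.11.15 and pandas 2.3.3. Stages and auxin were compared with limma 3.58.1 in R 4.3.3, on −log2 best rank and on percent coverage, with 1 coefficient for each of the 6 post-mitotic groups. P-values were two-sided, adjusted by Benjamini-Hochberg over all genes tested, and called at 0.05. Values after ± are SE. The scripts were first tested on simulated data. Prometaphase was left out of the fits and described by counts.

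The members, the other gene lists and the tests were chosen with earlier results of these data known. Full values were set to be given for members called from early-G1 to late-G1, up to 6 with a prometaphase TSS peak by best mean rank, the 2 with the largest auxin difference in each measure, and the best and worst mean rank in early-G1. Members called between neighbouring stages, summit positions and the Cenpf course were added after their values were seen. Alternatives changed the scale of rank or coverage, the peaks or genes admitted, the error model, the replicate block and the libraries used. Replicate numbers shared between control and auxin were checked as pairs by their libraries' deviations from the group means. In mid-G1 rank these correlated at 0.0464, 0.139 and 0.267 for shared numbers and at −0.232 to 0.129 for unlike numbers. In mid-G1 coverage the values were −0.166, 0.328 and −0.0124 for shared numbers and −0.464 to 0.401 for unlike ones. The labels do not say that numbers pair the samples, so the main fits did not use them as pairs, and pairing was not decided.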

Additional observations from a re-analysis of the deposited data

How the results depend on the processing

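Values in this section are numbers of members called, in either direction. The number of all genes called can also differ between settings. Where its share is not given above, a changed number of members is not read as a result about them. In rank, the early-G1 to late-G1 number was 1 and became 0 with a normal score of rank, 0 with TSS peaks only, 3 with genes having a peak in at least 10 libraries and 2 with a mean-variance trend. The 1 was Cenpa, which was not tested with TSS peaks only because it lacked a TSS peak in 1 post-mitotic library. The mid-G1 to late-G1 number was 11 and became 1 with a normal score of rank and 7 with TSS peaks only, of 24 tested. In coverage, the early-G1 to mid-G1 number was 6 and became 2 on a logit scale and 3 with peaks joined within 1 kb. The mid-G1 to late-G1 number was 2 and became 0 on a logit scale, 0 with joined peaks, 1 with stricter peaks, 1 with a mean-variance trend and 4 with no filter on genes. The early-G1 to late-G1 number was 1 and became 2 when centred on the median gene, 0 on a logit scale, 2 with joined peaks and 4 with no filter, and the auxin number was 0 and became 1, Top2a, when centred. The causes were not tested.

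Leaving out each library in turn gave 4 to 7, 5 to 14 and 1 to 3 in rank for early-G1 to mid-G1, mid-G1 to late-G1 and early-G1 to late-G1, and 2 to 7, 0 to 5 and 1 to 4 in coverage. The early-G1 to late-G1 numbers in rank became 2 when mid-G1 control replicate 1 was dropped, 2 when late-G1 control replicate 2 was and 3 when late-G1 control replicate 3 was, and the corresponding coverage numbers were 2 with the first of these dropped and 4 with the second. The auxin numbers ranged from 0 to 1 in rank on average, in late-G1 and in its stage difference, and in coverage in late-G1, and from 0 to 0 in the others. The library behind each 1 was late-G1 control replicate 2, and for the average rank difference mid-G1 control replicate 3 also. Members with a TSS peak in all post-mitotic libraries numbered 24 to 31, and in all prometaphase libraries 10 to 12. With the replicate number as a block, which shared numbers alone do not justify, the auxin number in rank was 1, Ccna2. In coverage the early-G1 to mid-G1 number was then 3 and the mid-G1 to late-G1 number 0. No single member's difference reversed over 549 alternatives to 26 results, and 125 of them lost the call.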
